A study of Rattus norvegicus with 16 samples.

Results

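The Toll-like receptor genes Tlr1 to Tlr7, the co-receptor genes Cd14 and Ly96 and the adaptor gene Myd88 were followed in the lungs and adipose tissue of rats with house dust mite (HDM) allergy. These 10 genes were found through the RefSeq transcripts in the array design, which named 16678 genes, and 13 of the 21229 named probes belonged to them. Tlr6 had 3 probes and Ly96 had 2, and each gene is given by its brightest probe, with the other probes beside it. All animals were male Brown Norway rats, an inbred strain that mounts strong allergic responses, and were 7 weeks old. For sensitization, which lasted 3 weeks, each of the 5 HDM rats had a weekly subcutaneous dose of 45 µg of mite extract. During the 3 weeks of challenge, every intranasal dose held 120 µg, with 3 doses a week. The 3 control rats were given saline at both stages, and the injections of both groups held the adjuvant Al(OH)3. Each rat gave 1 lung and 1 adipose sample, each on its own array, and the separate rats are the replicates. The fat depot is not named in the labels.

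Toll-like receptors are sensors of the innate immune system that recognise molecules shared by many microbes. TLR2 pairs with TLR1 or TLR6 at the cell surface and binds lipoproteins, TLR4 with MD-2 (Ly96) and CD14 binds lipopolysaccharide, TLR5 binds flagellin, and TLR3 and TLR7 lie in endosomes and bind RNA. All of these but TLR3 can signal through the adaptor MyD88 toward NF-κB. In mite allergy the airway meets lipopolysaccharide carried with the allergen, and a major mite allergen resembles MD-2.

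Levels are log2 signals relative to the 75th percentile of all probes on the array, so 0 is that percentile and 1 is a doubling. They compare rats for 1 probe and do not rank genes against each other. A gene was counted as passing the test when limma, a linear model with a spread shared across all probes, gave a Benjamini-Hochberg adjusted p below 0.05 and the fold change was above 1.5. The number of arrays, 5 against 3, limits the precision of every value.

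The 250 bases before the start site are given for Tlr2, Tlr1 and Tlr6, whose levels in every HDM lung lay above those in all control lungs, and for Tlr4, whose levels overlapped. They are from the RefSeq promoter table of the rat assembly GRCr8, read 5′ to 3′ on the strand of the gene. The windows are chr2:171504558-171504807 (minus strand) for Tlr2, chr14:43747571-43747820 (plus strand) for Tlr1, chr14:43715559-43715808 (plus strand) for Tlr6 and chr5:85160997-85161246 (plus strand) for Tlr4. Capitals mark matches to the motifs that were searched on both strands, which were the NF-κB consensus, the AP-1 motif TGANTCA, the PU.1-type motif GAGGAA and the GAS motif TTCNNNGAA.
Tlr2: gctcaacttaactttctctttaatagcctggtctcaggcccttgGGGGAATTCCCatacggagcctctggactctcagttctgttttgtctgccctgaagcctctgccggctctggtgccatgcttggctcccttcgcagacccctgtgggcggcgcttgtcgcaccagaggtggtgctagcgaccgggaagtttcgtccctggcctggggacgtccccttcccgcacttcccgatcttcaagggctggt
Tlr1: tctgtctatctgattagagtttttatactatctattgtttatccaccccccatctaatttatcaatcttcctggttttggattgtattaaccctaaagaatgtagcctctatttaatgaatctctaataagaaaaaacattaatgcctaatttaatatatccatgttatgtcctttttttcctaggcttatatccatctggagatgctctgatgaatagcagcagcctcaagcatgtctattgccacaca
Tlr6: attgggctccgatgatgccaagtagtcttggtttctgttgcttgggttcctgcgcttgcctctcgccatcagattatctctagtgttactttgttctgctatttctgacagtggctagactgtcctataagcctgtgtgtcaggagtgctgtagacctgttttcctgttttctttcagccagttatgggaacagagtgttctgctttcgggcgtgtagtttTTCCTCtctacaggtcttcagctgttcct
Tlr4: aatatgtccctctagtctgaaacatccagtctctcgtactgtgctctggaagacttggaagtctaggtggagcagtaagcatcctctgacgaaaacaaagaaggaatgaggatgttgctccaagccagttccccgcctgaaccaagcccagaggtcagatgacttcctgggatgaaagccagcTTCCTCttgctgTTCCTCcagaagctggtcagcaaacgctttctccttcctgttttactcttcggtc
The Tlr2 window held a pair of overlapping NF-κB matches, GGGGAATTCC from 206 to 197 bases before the start and GGGAATTCCC from 205 to 196 bases before it. An NF-κB match of this kind was present in 3.54% of all 33469 rat promoter windows of the same length. Tlr6 held 1 PU.1-type match (TTCCTC on the printed strand, 29 to 24 bases before the start) and Tlr4 held 2 (67 to 62 and 55 to 50 bases before it), a motif found in 23.3% of all windows. The Tlr1 window held no match to any of the 4 motifs. AP-1 and GAS matches, present in 6.34% and 7.67% of all windows, occurred among the 9 genes with an entry in Myd88 only. The windows of Tlr1 and Tlr2 overlap the annotated spans of Tlr1 and Tlr2 themselves. Tlr6, Tlr1 and Tlr10 follow one another on chromosome 14 without another protein-coding gene between them.

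The labelled tissues matched their markers. The summed signal of 7 lung genes, surfactant genes among them, was 1400 to 1700 times the 75th percentile in lung and 1.40 to 2.37 in fat, and that of 7 adipocyte genes was 1170 to 2030 in fat and 4.67 to 23.0 in lung. The adipose arrays of HDM rat 1 and control rat 1 stood apart, since 8 epididymis genes summed to 3570 and 3930 there and to between 0.215 and 28.6 on the other 6, so the adipose values of the 10 genes, the counts and the neutrophil and macrophage sums are also given without those rats. Of those other 6, control rat 3 had 28.6 and HDM rat 5 had 3.85, above the 0.215 to 0.519 of the rest. Both stayed in the fits without the epididymis rats, which are thus not free of such signal. The adipose array of HDM rat 2 had 1224 outlier spots, against 355 to 444 on the other adipose arrays. On the lung slide and on the adipose slide, HDM rats 1 to 4 lay in row 1, and HDM rat 5 lay in row 2 with all 3 controls. All lung arrays shared a slide and all adipose arrays shared another, so slide and tissue cannot be told apart. Replicate arrays of a group correlated at 0.912 to 0.990 over all probes.

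In the lung, Tlr2 and its partner Tlr1 rose in HDM rats, 2.19-fold and 1.93-fold, while Tlr6 was 1.49-fold higher and did not pass. The lipopolysaccharide receptor Tlr4 did not pass and had a log2 difference of -0.15, and its partner Cd14 was 1.13-fold higher without passing. The 2 genes that passed out of 10 stand beside a background of 0.63% of all 16678 named genes that passed upward in lung (105 genes). Fewer cells of a type and less RNA per cell cannot be told apart in these whole-tissue samples, nor can their opposites.

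Tlr2 encodes the receptor subunit shared by the lipoprotein-sensing pairs. Its lung level was 2.17, 2.15, 2.50, 2.18 and 2.09 in HDM rats 1 to 5, and 1.28, 1.11 and 0.87 in control rats 1 to 3. Every HDM rat lay above every control rat, with a gap between the groups and HDM rat 3 above the rest. The means were 2.22 ± 0.16 (SD, n = 5) and 1.09 ± 0.21 (SD, n = 3), a log2 difference of 1.13 (SE 0.14, 95% interval 0.80 to 1.45, limma adjusted p = 0.0147).

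Tlr1 encodes the partner that, with TLR2, binds triacylated lipopeptides. In HDM rats 1 to 5 its lung level was -1.30, -1.48, -1.16, -1.51 and -1.61, and in the controls -2.27, -2.27 and -2.53. The groups did not overlap here either. Tlr1 averaged -1.41 ± 0.18 (SD, n = 5) against -2.36 ± 0.15 (SD, n = 3), a log2 difference of 0.95 (SE 0.14, 95% interval 0.63 to 1.26, limma adjusted p = 0.0275).

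Both calls were lost when some of the rats were left out and in some of the other fits. With the slide row as a block, the comparison is that of HDM rat 5 with the controls beside it in row 2, and the differences were 1.00 for Tlr2 (limma adjusted p = 0.355) and 0.75 for Tlr1 (limma adjusted p = 0.492). The part of the slide row in these results was not tested further, since row 1 held HDM rats only. When 1 rat at a time was left out, Tlr2 passed in 5 of 8 fits, failing without HDM rat 1 (adjusted p = 0.0504), control rat 2 (0.0857) or control rat 3 (0.0607) in limma. Tlr1 passed in 2 of 8 such limma fits, without HDM rat 3 (adjusted p = 0.0387) and without HDM rat 5 (0.0468), and had adjusted p-values of up to 0.115 in the others. Both genes kept a positive difference in all of them.

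Tlr6, whose product pairs with TLR2 for diacylated lipopeptides, was measured by 3 probes. The brightest gave 1.60, 2.01, 1.97, 2.08 and 1.94 in HDM rats 1 to 5 and 1.44, 1.35 and 1.24 in the controls. The groups did not overlap, and HDM rat 1 was nearest to the controls. The Tlr6 log2 difference was 0.58 (SE 0.13, 95% interval 0.27 to 0.88), and limma gave an adjusted p of 0.123. A dimmer probe on the same transcript passed, with 0.71 (95% interval 0.48 to 0.94, 1.64-fold, limma adjusted p = 0.0235), and a probe on a predicted transcript gave 0.58 (limma adjusted p = 0.106). All 3 Tlr6 probes thus separated the groups in the same direction and disagreed on the call. Whether probes of the neighbouring and related genes Tlr1 and Tlr6 pick up each other's transcripts was not tested.

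**Figure D1:**
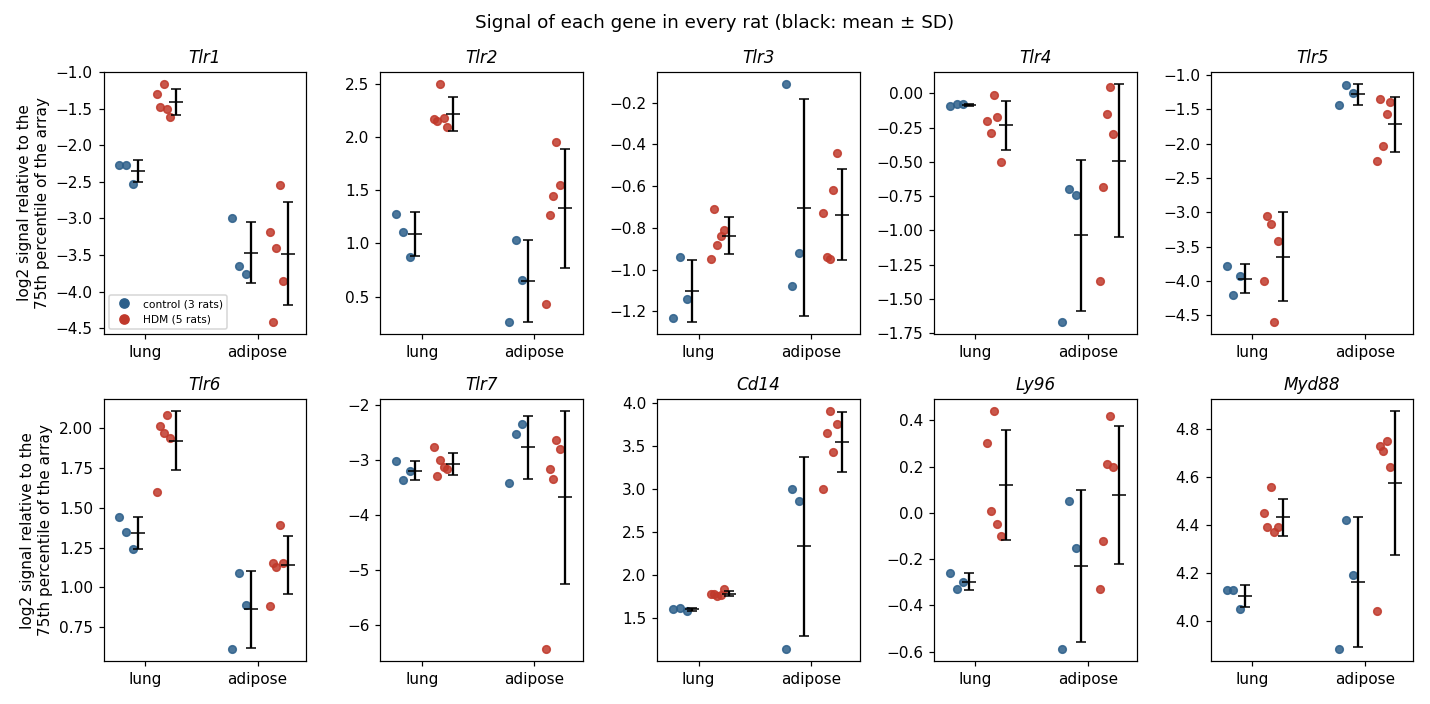
Level of each of the 10 genes in every rat, as log2 signal relative to the 75th percentile of the array, with 3 control rats in blue and 5 HDM rats in red for each tissue and mean ± SD in black. In lung the HDM points of Tlr1, Tlr2, Tlr6, Cd14, Ly96 and Myd88 lie above all control points, and in adipose tissue only those of Cd14 do, with HDM rat 1 and control rat 2 almost level. Each panel has its own scale.

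Among the genes of lipopolysaccharide recognition, Tlr4 is the signaling receptor. Its lung levels were -0.20, -0.29, -0.01, -0.17 and -0.50 in the HDM rats and -0.09, -0.08 and -0.08 in the controls. The controls lay within 0.01 of their mean and inside the range of the HDM rats. The log2 difference in Tlr4 was -0.15 (SE 0.13, 95% interval -0.44 to 0.14, limma adjusted p = 0.846), so the interval stops well short of the change seen for Tlr2.

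Cd14 encodes the co-receptor that hands lipopolysaccharide to TLR4 and also serves TLR2. In lung it stood at 1.79, 1.79, 1.76, 1.77 and 1.84 in HDM rats and at 1.61, 1.62 and 1.59 in controls. The groups were tight and separate (SD 0.03 and 0.02), and the exact permutation test over the 56 ways to split the rats gave its smallest possible two-sided p of 0.0179. The size was small, 0.18 on the log2 scale (95% interval -0.02 to 0.38), and limma, which widens so small a spread toward that of other probes, gave an adjusted p of 0.547.

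Ly96 encodes MD-2, the protein that holds lipopolysaccharide beside TLR4. Its brighter probe read 0.30, 0.01, 0.44, -0.05 and -0.10 in HDM rats and -0.26, -0.33 and -0.30 in controls, without overlap and with HDM rats 1 and 3 highest. The difference was 0.42 (95% interval 0.07 to 0.76, limma adjusted p = 0.362). The second Ly96 probe gave 0.30 (95% interval -0.04 to 0.64, limma adjusted p = 0.567), and on it the groups overlapped.

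Myd88, the adaptor shared by nearly all the receptors above, read 4.45, 4.39, 4.56, 4.37 and 4.39 in HDM lungs and 4.13, 4.13 and 4.05 in control lungs. The groups did not overlap. The difference of 0.33 (SE 0.09, 95% interval 0.11 to 0.55) had a limma adjusted p of 0.219 and stayed under the 1.5-fold limit.

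The flagellin receptor gene Tlr5 and the RNA sensor genes Tlr3 and Tlr7 showed no separation in lung. Tlr5 ranged from -4.60 to -3.05 over the HDM rats and from -4.20 to -3.78 over the controls, with a difference of 0.32 (95% interval -0.50 to 1.13, limma adjusted p = 0.911). Tlr3, the sensor of double-stranded RNA, differed by 0.26 (95% interval 0.01 to 0.51, limma adjusted p = 0.470), and Tlr7, the sensor of single-stranded RNA, by 0.12 (95% interval -0.22 to 0.46, limma adjusted p = 0.926). HDM and control rats overlapped for each of these 3 genes.

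Over the 10 genes, 6 were higher in every HDM lung than in any control lung, where 5.94% of all named genes were, and 6 had an unadjusted limma p below 0.05 upward, where 6.31% of all named genes did. The 6 without overlap were Tlr1, Tlr2, Tlr6, Cd14, Ly96 and Myd88. The 6 below an unadjusted p of 0.05 held Tlr3 (limma unadjusted p = 0.0452) in place of Cd14 (limma unadjusted p = 0.0664). The median log2 difference of the 10 genes was 0.32, against -0.01 over all named genes. All 10 were well above background on all 8 lung arrays.

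In adipose tissue none of the 10 genes passed in limma, as none of all 16678 named genes did in either direction (0%). At an unadjusted p below 0.05, 1 of the 10 was higher, Cd14, where 1.38% of all named genes were (230 genes, with 1095 lower). Cd14 was also the only member higher in every HDM rat than in any control rat, where 2.16% of all named genes were. Its levels were 3.01, 3.65, 3.91, 3.43 and 3.76 in HDM rats 1 to 5 and 1.14, 3.01 and 2.86 in the controls. Control rat 1 lay far below the others, and HDM rat 1 and control rat 2 were level to 2 decimals. The Cd14 difference was 1.21 (2.32-fold, 95% interval 0.20 to 2.23, limma adjusted p = 0.440), and without control rat 1 alone it was 0.62 (limma adjusted p = 0.972). Without HDM rat 1 and control rat 1, the rats with epididymis genes, it was 0.75 (limma adjusted p = 0.530).

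Tlr2 in fat read 0.43, 1.27, 1.45, 1.95 and 1.55 in HDM rats and 0.26, 1.03 and 0.66 in controls. Only HDM rat 1 fell within the range of the controls. The difference was 0.68 (95% interval -0.12 to 1.48, limma adjusted p = 0.574), 0.91 without HDM rat 1 (limma adjusted p = 0.329) and 0.71 without both rats that carried epididymis genes (limma adjusted p = 0.665).

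Tlr4 in fat was -1.37, -0.68, -0.15, 0.05 and -0.30 in HDM rats and -1.67, -0.70 and -0.74 in controls. The lowest rat of each group was the one with epididymis genes. Its difference was 0.55 (95% interval -0.32 to 1.41, limma adjusted p = 0.701) and 0.45 without those rats (limma adjusted p = 0.811). Myd88 differed by 0.41 (95% interval -0.11 to 0.93, limma adjusted p = 0.606), and in 4 of 5 HDM rats it lay between 4.64 and 4.75, above the controls at 3.88 to 4.42, with HDM rat 1 at 4.04. Without the epididymis rats the Myd88 difference was 0.40 (limma adjusted p = 0.688).

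The remaining genes overlapped between the groups in fat. Tlr6 differed by 0.27 (95% interval -0.15 to 0.69) and Ly96 by 0.31 (95% interval -0.23 to 0.85). The Tlr5 difference was -0.44 (95% interval -1.01 to 0.14). Tlr1 and Tlr3 differed by -0.01 (95% interval -0.97 to 0.95) and -0.03 (95% interval -0.62 to 0.55), and both turned positive under some other scalings and without the epididymis rats (0.15 and 0.26). Tlr7 differed by -0.91 (95% interval -2.87 to 1.05), a value set by HDM rat 1 at -6.45 and falling to -0.22 without it. Without both epididymis rats, the differences were 0.21 for Tlr6, 0.23 for Ly96, -0.39 for Tlr5 and -0.55 for Tlr7. Tlr1 was well above background on 7 of the 8 adipose arrays and Tlr7 on 6, and the other 8 genes on all.

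**Figure D2:**
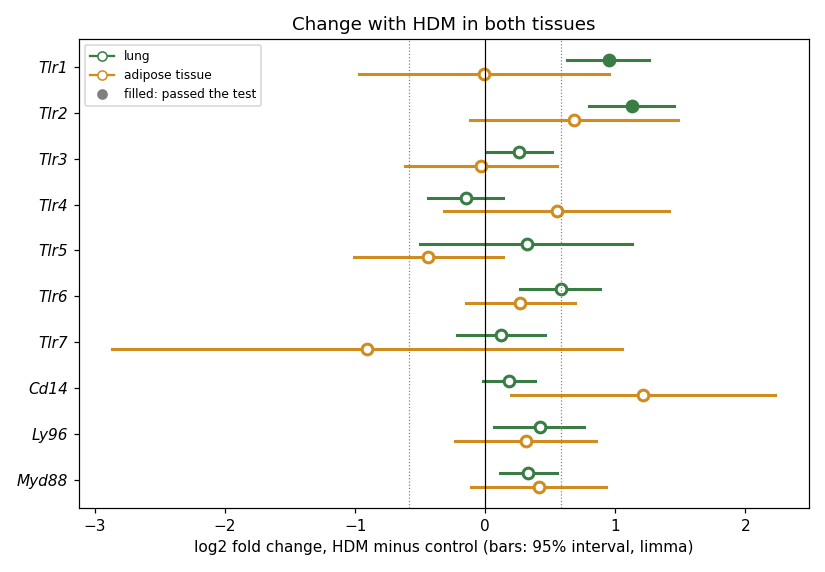
Log2 fold change of HDM over control rats for each gene in lung (green) and adipose tissue (orange), with 95% limma intervals and dotted lines at 1.5-fold. The lung points of Tlr1 (0.95) and Tlr2 (1.13) are filled because they passed the test, the Tlr4 interval in lung spans 0, and every adipose interval except that of Cd14 spans 0.

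Whether the change with HDM differed between the tissues was tested on the lung-minus-fat difference within each rat. None of the 10 genes passed in limma, as none of all named genes did (0%). An unadjusted p below 0.05 was reached by 1 of the 10 and by 1178 of all 16678 named genes, so 1 of 10 is near the background share. The 1 was Tlr1, whose change was larger in lung by 0.96 (95% interval 0.01 to 1.91, limma adjusted p = 0.642). Cd14 went the other way, by -1.03 (95% interval -2.07 to 0.01, limma adjusted p = 0.644). For Tlr2 the estimate was 0.45 (95% interval -0.44 to 1.34) and for Tlr4 -0.70 (95% interval -1.59 to 0.20). The rise of Tlr2 and Tlr1 in lung is therefore not shown to be larger than in fat.

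In the control rats, Tlr5, Tlr1 and Tlr4 passed between the lung and adipose arrays, where slide and tissue cannot be told apart. The median of all probes was -0.58 for lung minus fat on this scale, and -0.09 with dim probes left out. Each difference is therefore read with both medians in view. With dim probes left out, Tlr5, Tlr1 and Tlr4 kept the same differences and passed. Among all named genes, 43.9% passed in this comparison. Tlr5 was lower in lung than in fat by -2.33, -3.05 and -2.66 in control rats 1 to 3 and in all 5 HDM rats too. Its mean difference in controls was -2.68 (6.41-fold, 95% interval -3.44 to -1.92, limma adjusted p = 0.000762). Under normexp correction with quantile normalization it was -1.01 (limma adjusted p = 0.000272), and the test that did not share the spread across probes ended the call for Tlr5 (adjusted p = 0.0908) and for the other two.

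Tlr1 was higher in lung in all 8 rats, by 0.73, 1.39 and 1.22 in the controls (mean 1.11, 95% interval 0.36 to 1.86, limma adjusted p = 0.0248). Tlr4 was higher in lung in the controls by 1.58, 0.62 and 0.66 (mean 0.96, 95% interval 0.25 to 1.66, limma adjusted p = 0.0349), but in 3 of the 5 HDM rats only, where the differences ran from -0.22 to 1.16. Without the epididymis rats, Tlr1 (1.30, limma adjusted p = 0.0647) and Tlr4 (0.64, limma adjusted p = 0.0653) no longer passed. Tlr5 did (-2.85, limma adjusted p = 0.00845), and Tlr7 (-0.84, limma adjusted p = 0.0453) and Cd14 (-1.33, limma adjusted p = 0.00618) then passed as lower in lung.

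Cd14 ranked fat above lung in 7 of 8 rats. The exception was control rat 1, with lung 0.47 above fat against -1.39 and -1.28 in the other controls and -2.15 to -1.22 in HDM rats. Across the 4 groups, the mean Cd14 level was 3.55 in HDM fat, 2.34 in control fat, 1.79 in HDM lung and 1.61 in control lung, and the spread of control fat (SD 1.04) reached both neighbours, while HDM lung and control lung did not overlap. Tlr2 ran 2.22 in HDM lung, 1.33 in HDM fat, 1.09 in control lung and 0.65 in control fat, where only HDM lung stood clear of the spread of the rest. Tlr4 ran -0.08 in control lung, -0.23 in HDM lung, -0.49 in HDM fat and -1.04 in control fat, with overlap between each pair of neighbours.

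**Figure D3:**
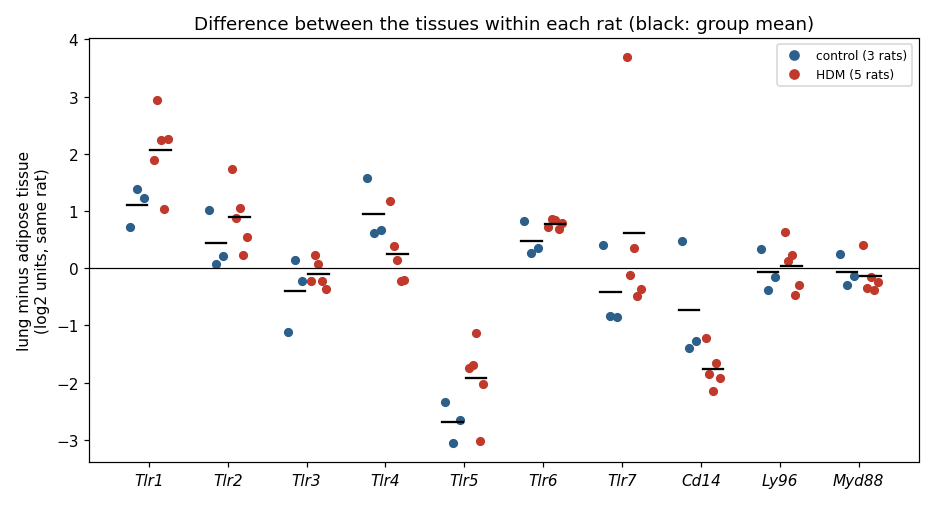
Lung minus adipose signal within each rat, in log2 units, for 3 control rats (blue) and 5 HDM rats (red), with group means as black bars. Tlr5 lies below 0 in all 8 rats, Tlr1, Tlr2 and Tlr6 lie above 0 in all 8, and Cd14 lies below 0 in 7.

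The other genes of the pathway were taken from lists of receptors, accessory proteins, signaling proteins, inhibitors, induced genes and ligands. In lung, 5 of their 75 measured members passed, all upward, where 1.12% of all named genes passed in either direction and 0.63% upward, and 23 had an unadjusted p below 0.05, where 12.7% of all named genes did in either direction. From the other Toll-like receptor genes 0 of 5 passed in limma, with 1 below an unadjusted p of 0.05. Tlr8, an endosomal RNA sensor, was that gene, at 0.77 (limma adjusted p = 0.103) and without overlap. Tlr12 gave 0.54 and the DNA sensor Tlr9 -0.74, both with overlap.

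Where 0.63% of all named genes passed upward in lung, 1 of 10 accessory proteins did. This was Itgam, the integrin CD11b of neutrophils and monocytes, which rose by 1.03 (limma adjusted p = 0.0285) from between -0.37 and -0.04 in controls to between 0.52 and 1.10 in HDM rats. Ly86 (MD-1) was at 0.49 (limma adjusted p = 0.167) and its partner Cd180, a Toll-like receptor homologue of B cells, at 0.66 (limma adjusted p = 0.310).

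Of the kinases, ligases and transcription factors downstream, none of 17 passed in lung in limma, and 3 had an unadjusted p below 0.05, close to the 12.7% of all named genes. Their differences ran from -0.26 to 0.32 with a median of 0.02. Those 3 were Ikbkb (-0.26), a kinase that activates NF-κB, and the transcription factors Irf5 (0.32) and Irf7 (0.26).

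Of 13 inhibitors none passed in limma, and 5 had an unadjusted p below 0.05, beside the 12.7% of all named genes. Irak3, which brakes MyD88 signaling, stood at 0.57 with a limma adjusted p of 0.0482 and a fold of 1.48, just under the fold limit. The NF-κB inhibitor gene Nfkbia, itself induced by NF-κB, was lower in every HDM rat (3.49 to 4.09) than in any control rat (4.45 to 4.66), a difference of -0.86 (limma adjusted p = 0.0767). Nfkbie, a related inhibitor, was at 0.43 (limma adjusted p = 0.146).

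Among 21 genes that Toll-like receptors can induce, 1 passed, where 0.63% of all named genes passed upward in lung. This was the cytokine gene Il1b. It rose by 1.62 (3.08-fold, limma adjusted p = 0.0373), from 2.18 to 2.49 in controls to 3.41 to 4.63 in HDM rats. The chemokine gene Ccl2 was at 1.17 (limma adjusted p = 0.185). Acod1, the itaconate enzyme of activated macrophages, did not rise well above background on the lung arrays.

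Of 9 ligand genes 3 passed, where 0.63% of all named genes passed upward in lung. The list was written with earlier results of these data known. The calprotectin genes S100a8 and S100a9, whose products are carried by neutrophils and can bind TLR4, rose by 4.46 (limma adjusted p = 0.000736) and 4.09 (limma adjusted p = 0.000376). Vcan, the proteoglycan versican and a TLR2 ligand, rose by 1.13 (limma adjusted p = 0.0258). The other 6 ligand genes did not pass.

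**Figure D4:**
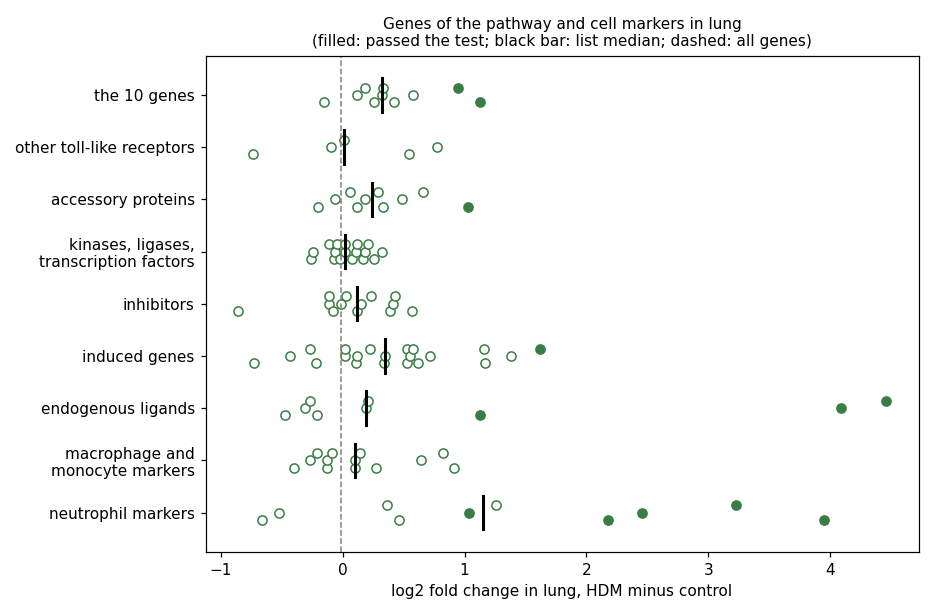
Log2 fold change of HDM over control rats in lung for the 10 genes, for the lists of pathway genes and for macrophage and neutrophil markers, 1 point per gene, filled where the gene passed the test, with the list median as a black bar and the median of all genes as a dashed line at -0.01. The median is 0.32 for the 10 genes, 0.02 for the kinases, ligases and transcription factors and 1.15 for the neutrophil markers.

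In adipose tissue none of the 75 pathway genes passed in limma, and 11 had an unadjusted p below 0.05, where 7.94% of all named genes did in either direction. Without the epididymis rats 0 passed and 12 had such a p, where 6.38% of all named genes did. The largest differences were those of S100a8 at 4.66 (limma adjusted p = 0.154) and S100a9 at 3.83 (limma adjusted p = 0.0853), both without overlap. Il1b at 0.73 (limma adjusted p = 0.423) and the inhibitor Tnip1 at 0.50 (limma adjusted p = 0.478) were also higher in every HDM rat. Ccl2 was at 1.13 and Ly86 at 0.60, with overlap, and Cd180, at 1.66, was well above background in 3 HDM rats and no control rat. Without the epididymis rats S100a8 was at 4.10 (limma adjusted p = 0.460), S100a9 at 4.05 (0.404), Il1b at 0.77, Tnip1 at 0.36, Ccl2 at 1.25, Ly86 at 0.64 and Cd180 at 1.74.

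Markers of the cells that carry these receptors moved too, and their part in the results was not tested. Of 10 measured neutrophil markers 5 rose in lung, where 0.63% of all named genes did. They were Csf3r, Cxcr2, Mmp8, Mmp9 and Ncf4, and 1 other, Fpr1, was lower in every HDM rat without passing. The summed signal of the 10 was 20.9 to 25.8 in HDM lungs and 11.8 to 16.2 in control lungs, a 1.69-fold difference of means without overlap (exact permutation test, two-sided p = 0.0179), with Ltf and Elane not well above background throughout. That sum mostly followed Ncf1 and Ncf4, with mean log2 signals of 3.57 and 2.59 in HDM lungs and 3.11 and 1.55 in control lungs. Their log2 differences were 0.46 and 1.04, against 2.18 to 3.95 for Csf3r, Cxcr2, Mmp8 and Mmp9. The 1.69-fold ratio therefore does not give the size of change of the dimmer markers. For 7 eosinophil markers, of which Siglec5 rose, the sum was 3.18 to 4.98 in HDM lungs and 1.58 to 2.46 in controls (exact permutation test, two-sided p = 0.0179), with Il5ra not well above background.

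The macrophage and monocyte list did not separate the groups as a sum. It was 453 to 608 in HDM lungs and 495 to 562 in control lungs (exact permutation test, two-sided p = 0.661), and 0 of its 13 genes passed in limma. That lung sum mostly followed Lyz2, with a mean log2 signal of 8.92 in HDM and 9.01 in control lungs. The next highest signal was that of Fcgr1a, at 3.71 and 2.89, so the sum says little about the other genes. Of the 13, 4 were higher in every HDM lung, where 5.94% of all named genes were, among them Ccr2 at 0.91 (limma adjusted p = 0.0931) and Fcgr1a at 0.82 (limma adjusted p = 0.118). The 5 B-cell genes summed to 8.39 to 10.9 and 8.17 to 9.32 (exact permutation test, two-sided p = 0.232). For 5 dendritic cell genes the sum was lower, at 2.50 to 2.74 in HDM lungs and 3.23 to 3.46 in controls (exact permutation test, two-sided p = 0.0179). Zbtb46, at -0.56, had the highest signal of these 5. It alone had an unadjusted limma p below 0.05, and Ccr7 went the other way, at 0.14. For 5 epithelial genes the sum was 48.7 to 63.6 and 60.8 to 66.2, with overlap. In adipose tissue the neutrophil sums were 4.83 to 11.7 and 4.03 to 7.10, and the macrophage sums 99.1 to 216 and 101 to 150, with overlap in both. Of the 13 macrophage and monocyte genes in fat, 12 had a positive difference and 1 a negative one, where 7344 of all 16678 named genes were positive. Their median was 0.48, against -0.05 over all named genes. None of the 13 passed in limma, and the groups overlapped for each. For the neutrophil sums of all rats in fat, the exact permutation test gave a two-sided p of 0.179. Without the epididymis rats the neutrophil sums were 7.26 to 11.7 and 6.80 to 7.10, without overlap, and the macrophage sums 133 to 216 and 134 to 150. That separation was not tested, and it rests on fewer rats in each group, left out after seeing the data. In fat, Mmp8 and Elane never rose well above background, and only 3 of the 10 neutrophil markers did so on every array.

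**Figure D5:**
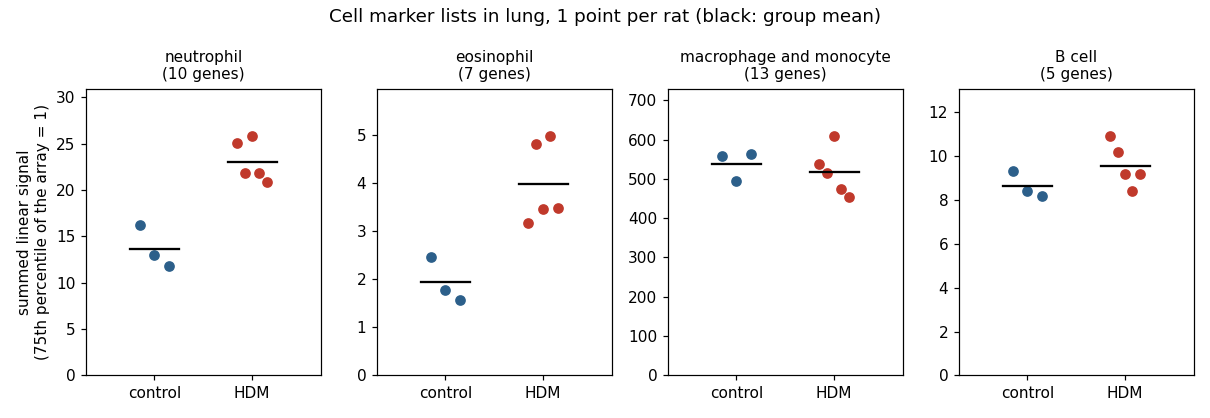
Summed linear signal of 4 cell marker lists in lung, with 1 point per rat, control rats in blue, HDM rats in red and group means in black, on axes that start at 0 where 1 is the 75th percentile of the array. The neutrophil and eosinophil sums of the 5 HDM rats lie above those of the 3 control rats, and the macrophage and B-cell sums overlap.

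The genes with lung profiles most like those of Tlr2 and Cd14 were sought among 11903 genes well above background on all 8 lung arrays, by the root mean square of the difference between centred log2 levels. For Tlr2 they were Pirb at 0.078, Ncf4 at 0.079, Lypd8l1 at 0.086, Bcat1 at 0.112 and Susd3 at 0.113. The differences of these 5 genes between HDM and control lungs were 0.94 to 1.29. Values near that of Tlr2 follow from the ranking, which used the same arrays. Ncf4, a subunit of the phagocyte NADPH oxidase, is also among the neutrophil markers. For Cd14 they were Sema4a, Cmtm7, Tmub2, Gmip and Slc39a1, at 0.030 to 0.041. Such likeness describes these 8 arrays.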

How the data were processed

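Lung and adipose RNA of 8 rats was hybridised to 16 one-colour Agilent arrays, 1 array per rat and tissue, with 50 ng of RNA as input. The authors deposited the spot intensity of each array on a linear scale, background-subtracted by Agilent Feature Extraction 12.0.3.1 and not normalized between arrays, and a table of normalized log2 values, which served as an alternative. Dates stood in 39 of its cells, which were treated as missing.

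Control probes and outlier spots were left out, log2 intensities were averaged over spots of the same probe and expressed relative to the 75th percentile of the array, with no filter on dim probes. Groups were compared within each tissue with limma 3.58.1 (lmFit, eBayes) in R 4.3.3, and p-values were adjusted over all 45598 probes. Tissues were compared by limma on the lung-minus-adipose difference of each rat. An unpaired t-test, the test in the methods of the study, was an alternative. Single values were compared by exact permutation tests, and the limma steps were tested on simulated data. Symbols came from RefSeq accessions through a RefSeq list of 47357 rat genes of GRCr8, for 21229 probes. Promoters are from RefSeq. Figures were drawn with matplotlib 3.10.9 (pandas 2.3.3, Python 3.11.15).

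All 10 genes are named, by the brightest probe in the tissue. From each pathway list the genes that passed, or up to 3 with the smallest p, are named where they bear on a result, and profile likeness was ranked for Tlr2, Cd14 and Tlr4, of which the ranking for Tlr4 is not reported here. The genes, lists and rules were chosen with earlier results of these data known. The alternatives were other scalings, background correction, filters, weights, blocks and tests, and leaving out each rat. Normexp (offset 50) used the median spot signal in place of the mean. Leaving out both rats with epididymis genes was chosen after seeing the data. Equal rat numbers in the 2 groups were not taken as pairs, because deviations of same-numbered lung arrays correlated at -0.0779 to 0.0457.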

Additional observations from a re-analysis of the deposited data

Results flagged for a closer look

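In the groups of 5 HDM rats, 4 of 20 sets of values held 1 rat that stood far from the rest by Dixon's criterion at the 95% level, which chance reaches in about 1 set in 20. Tlr2 in lung was 2.50 in HDM rat 3, where the next was 2.18 and the lowest 2.09. Tlr6 in lung was 1.60 in HDM rat 1, where the next was 1.94 and the highest 2.08. Without HDM rat 1 the Tlr6 difference was 0.66 (limma adjusted p = 0.0910).

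In adipose tissue Tlr7 was -6.45 in HDM rat 1, where the next was -3.34, and Myd88 was 4.04 in the same rat, where the next was 4.64. That sample also carried the epididymis genes, with a summed signal of 3570.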

How the results depend on the processing

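In lung, Tlr1 and Tlr2 passed under each other scaling, with outlier spots kept, in the authors' table, with dim probes left out, with array weights, in the methods' t-test and with the adjustment limited to probes past 1.5-fold. The 2 genes became 0 with the slide row as a block, with limma's treat against 1.5-fold and in a joint fit of 16 arrays with the rat as a random block (limma adjusted p = 0.480 for Tlr1 and 0.140 for Tlr2). With the replicate block, which pairs rats by number, the count was 0 as well, at 1.04 for Tlr1 and 1.18 for Tlr2 (limma adjusted p = 0.310 for both). The deviations of same-numbered rats correlated at -0.0779 to 0.0457 in lung and 0.0974 to 0.591 in fat, and not every control rat correlated best with its own number. Leaving out 1 rat at a time gave 0 to 2 genes in lung. Under normexp correction the Tlr1 difference was 0.59 and passed. Taking the probe with the smallest p added Tlr6 and gave 3 genes.

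In fat the count was 0 under each alternative. The Tlr1 difference there turned to 0.35 with quantile normalization, 0.28 with median scaling, 0.24 with scaling to Gapdh and Hprt1 and with array weights, 0.10 with normexp and 0.15 without the epididymis rats, and spanned -0.25 to 0.23 over fits without 1 rat. The Tlr3 difference turned to 0.26 with median scaling and without the epididymis rats, 0.04 with Gapdh and Hprt1, 0.33 with array weights and 0.27 with the slide row, and spanned -0.22 to 0.26 without 1 rat. The median of all probes in fat was -0.15 as reported and ran from -0.24 (without control rat 3) to 0.14 (median scaling).

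For lung against fat in control rats, 0 genes passed in a t-test on the differences, and 1 to 3 without 1 rat, Tlr5 alone without control rat 2 or 3. Tlr6 passed with median scaling (0.73) and with Gapdh and Hprt1 (0.93), and Cd14 with array weights (limma adjusted p = 0.0253). Tlr4 did not pass with quantile normalization (limma adjusted p = 0.0532), nor Tlr1 with normexp (0.57, under the fold limit). Values that changed sign, none of them called, were Myd88 at 0.13 (quantile), 0.19 (median), 0.01 (75th percentile over probes well above background), 0.40 (Gapdh and Hprt1) and 0.03 (normexp), Ly96 at 0.19 (median) and 0.39 (Gapdh and Hprt1), and Tlr3 at 0.06 and Tlr7 at 0.04 (Gapdh and Hprt1). Without 1 rat, Ly96 spanned -0.27 to 0.09 and Myd88 -0.21 to 0.05. Blocks were not run for this comparison, because its estimate is the mean of the control rats.

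For the change in lung against that in fat, 0 genes passed under each alternative. Myd88 turned to 0.07 (quantile), 0.01 (75th percentile over probes well above background), 0.12 (normexp) and 0.04 (replicate block), Ly96 to -0.24 (median scaling and slide row), Tlr6 to -0.04 (median) and Tlr3 to -0.05 (median) and -0.04 (without the epididymis rats). Without 1 rat, Tlr3 spanned -0.06 to 0.57, Ly96 -0.05 to 0.31 and Myd88 -0.22 to 0.07. The causes of these changes were not tested. Dim genes, Tlr5 and Tlr7 in lung and Tlr1 and Tlr7 in fat, lie nearest to background. The largest SE was that of Tlr5 in lung (0.35) and that of Tlr7 in fat (0.85). Tlr7 in lung (0.15) and Tlr1 in fat (0.42) had an SE like that of brighter genes, such as Ly96 in lung (0.15) and Cd14 in fat (0.44).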
